A study of Mus musculus with 2 samples.

Results

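The transcripts of 46 cell cycle genes were followed through the cell classes of the embryonic mouse cortex. Of these genes, 24 act in S phase, when DNA is copied, and 22 act in G2 and mitosis, when the copied chromosomes are prepared and pulled apart. They were taken by name from textbook lists of these phases and no threshold on a value was used, although earlier results of these data were known when they were chosen. All 46 were found among the 32285 genes of the tables.

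Single-cell suspensions of the dorsal telencephalon had been profiled by droplet-based 3′ RNA sequencing at E14.5, when radial glia and intermediate progenitors of the cortex divide side by side with newly made neurons. Both libraries were labelled WT and EomesDot, with brain hemispheres as the tissue, and are called replicate 2 and replicate 4 here, as numbered in the titles. The study describes C57BL/6J embryos, and how these relate to the EomesDot label, or how many embryos went into a library, is not stated in the sources used here. With 1 group of animals, every comparison below is between cell classes or cell cycle phases over n = 2 libraries, and the p-values measure only the spread between these 2 libraries.

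Before S phase, the licensing factors Cdc6 and Cdt1 load the MCM helicase onto DNA, and the sliding clamp Pcna then holds the polymerases in place while ribonucleotide reductase supplies the building blocks. Later, Cdk1 with its cyclins drives the cell into mitosis, Aurora and Polo-like kinases build the spindle, and the anaphase-promoting complex ends mitosis by marking cyclins and other proteins for destruction. Many S phase genes are driven by E2F factors, which bind a site of the same name, whereas many G2/M genes are held down in resting cells and switched on late through the CHR and CCAAT elements of their promoters. In the cortex, radial glial cells (RGCs) divide at the ventricle, and intermediate progenitor cells (IPCs), their EOMES-positive daughters, divide away from it and give rise to neurons.

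Replicate 2 held 1712 barcodes with 40267872 UMIs (molecular tags, each marking one captured transcript) and replicate 4 held 2589 barcodes with 49422007 UMIs. After filtering, 1197 and 1956 cells were retained, with medians of 30810 and 22948.5 UMIs. Among retained cells, 1 barcode sequence occurred in both libraries. Cell classes were rebuilt here from marker genes, and the borders of the study's own clusters may lie elsewhere. Together 461 cell cycle-related genes, the 46 members among them, were left out of the clustering, so the members were not used to make the classes. There were 606 RGC-like cells (219 in replicate 2 and 387 in replicate 4) and 362 IPC-like cells (144 and 218). The summed level of 12 RGC markers was 5911 ± 446 CPM (UMIs per 1e+06 UMIs of the summed cells; mean ± SD, n = 2) in RGC-like cells, against 1266 ± 34.3 CPM in IPC-like cells, and that of 8 IPC markers, Eomes among them, was 2580 ± 64.2 CPM in IPC-like cells and 361 ± 67.4 CPM in RGC-like cells. The 13 excitatory neuron markers summed to 6324 ± 581 CPM in IPC-like and 3005 ± 308 CPM in RGC-like cells, and 6 of them were raised in each of the IPC-like clusters 18 and 22, so that neuronal markers move with every difference between the 2 classes below, and their part in it was not tested. RGC-like cluster 1 was led in part by hemoglobin genes, which red blood cells make, and the summed level of erythroid markers in it was 59.6 CPM in replicate 2 and 5820 CPM in replicate 4. A further cluster of 265 cells carried raised markers of both IPCs and excitatory neurons and was kept apart as a mixed class, so that the border of the IPC-like class depends on how the cells are grouped.

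The promoters of the genes were examined for the elements named above, because these elements are known from genes of both lists. RefSeq promoter windows of the mouse build GRCm38.p6 (mm10), the build the submitters' processing notes name, were found for 40 of the 46 members, 21 of them S phase and 19 G2/M genes. The 5 sequences below are the 250 bases before the annotated start, written 5′ to 3′ on the strand of the gene, for members with matches that differed strongly between the phases (Cdc6, Cdc20, Ube2c) or that had the most matches of their list in a single window (Mcm6, Top2a). Capitals mark matches on either strand to the E2F letters TTTCCCGC, TTTGGCGC, TTTCGCGC or TTTGCCGC, to the CHR letters TTTGAA or TTCGAA, or to CCAAT. The windows are Cdc6 chr11:98907901-98908150 (plus strand), Mcm6 chr1:128359706-128359955 (minus strand), Cdc20 chr4:118437344-118437593 (minus strand), Ube2c chr2:164769679-164769928 (plus strand) and Top2a chr11:99024190-99024439 (minus strand).
Cdc6: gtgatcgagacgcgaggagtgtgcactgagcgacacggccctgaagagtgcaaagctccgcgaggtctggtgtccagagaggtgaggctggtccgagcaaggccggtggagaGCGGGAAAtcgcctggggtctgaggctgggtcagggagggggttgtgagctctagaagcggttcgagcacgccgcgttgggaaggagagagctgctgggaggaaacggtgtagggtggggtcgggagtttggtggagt
Mcm6: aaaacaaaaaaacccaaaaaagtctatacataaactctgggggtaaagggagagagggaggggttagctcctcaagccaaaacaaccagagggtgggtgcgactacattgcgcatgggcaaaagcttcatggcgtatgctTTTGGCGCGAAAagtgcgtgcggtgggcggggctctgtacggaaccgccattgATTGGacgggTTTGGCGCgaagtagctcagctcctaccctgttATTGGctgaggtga
Cdc20: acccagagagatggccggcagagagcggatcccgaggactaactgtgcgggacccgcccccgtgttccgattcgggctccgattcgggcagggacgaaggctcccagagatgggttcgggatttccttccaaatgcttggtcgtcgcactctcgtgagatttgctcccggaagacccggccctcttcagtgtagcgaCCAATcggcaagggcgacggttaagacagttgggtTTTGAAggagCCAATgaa
Ube2c: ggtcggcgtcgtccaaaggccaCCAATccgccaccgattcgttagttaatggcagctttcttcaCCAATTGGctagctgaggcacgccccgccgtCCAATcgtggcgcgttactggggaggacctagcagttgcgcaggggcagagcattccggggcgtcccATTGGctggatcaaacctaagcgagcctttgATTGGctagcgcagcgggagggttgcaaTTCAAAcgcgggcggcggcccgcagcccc
Top2a: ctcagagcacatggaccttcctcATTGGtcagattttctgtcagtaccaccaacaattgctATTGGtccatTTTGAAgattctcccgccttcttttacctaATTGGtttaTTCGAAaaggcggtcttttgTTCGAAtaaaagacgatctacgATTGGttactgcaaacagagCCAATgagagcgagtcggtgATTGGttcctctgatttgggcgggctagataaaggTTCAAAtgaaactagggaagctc
Cdc6, a licensing factor, held 1 E2F match that began 138 bases before the start. Mcm6, a subunit of the replicative helicase, held 3 E2F matches (110, 106 and 47 bases before the start), of which the first and second overlap on opposite strands, and 2 CCAAT matches. Cdc20, an activator of the anaphase-promoting complex, held a CHR match 18 bases before the start and CCAAT matches 53 and 8 bases before it. Ube2c, the ubiquitin-conjugating enzyme of the same complex, held 1 CHR match at 29 bases and 6 CCAAT matches, and Top2a, the topoisomerase that untangles sister chromatids, held 4 CHR matches (the nearest at 23 bases) and 6 CCAAT matches. In Ube2c, CCAAT was read on both strands of the letters ccaattgg, so that 2 of its matches overlap.

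Over the lists, E2F letters occurred in 7 of 21 S phase members (33.3%: Cdc6, Dtl, Hells, Mcm5, Mcm6, Mcm7 and Pola1) and in 1 of 19 G2/M members (5.26%, Cdk1), beside 1.86% of the 32851 windows of the whole table. CHR letters occurred in 4 S phase (19%) and 9 G2/M members (47.4%), beside 17.1% of all windows. CCAAT occurred in 14 S phase (66.7%) and 15 G2/M members (78.9%), beside 33.8% of all windows. All 9 G2/M members with CHR letters also had CCAAT (47.4%), as did 3 S phase members (14.3%), beside 6.02% of all windows with both. At least 2 CCAAT matches were found in 12 G2/M (63.2%) and 7 S phase members (33.3%), beside 10.1% of all windows. Mcm7 and Fen1 had 2 windows each, so that the 40 members had 42, and a member was counted where either window held the letters. The CHR match of both and the E2F match of Mcm7 lay in 1 of the 2. The shares of members are thus per gene and those of the whole table per window. These matches are letters in a window and not shown sites. A member without them, such as Ung, Anln or Birc5, only lacks these letters in these 250 bases.

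**Figure D1:**
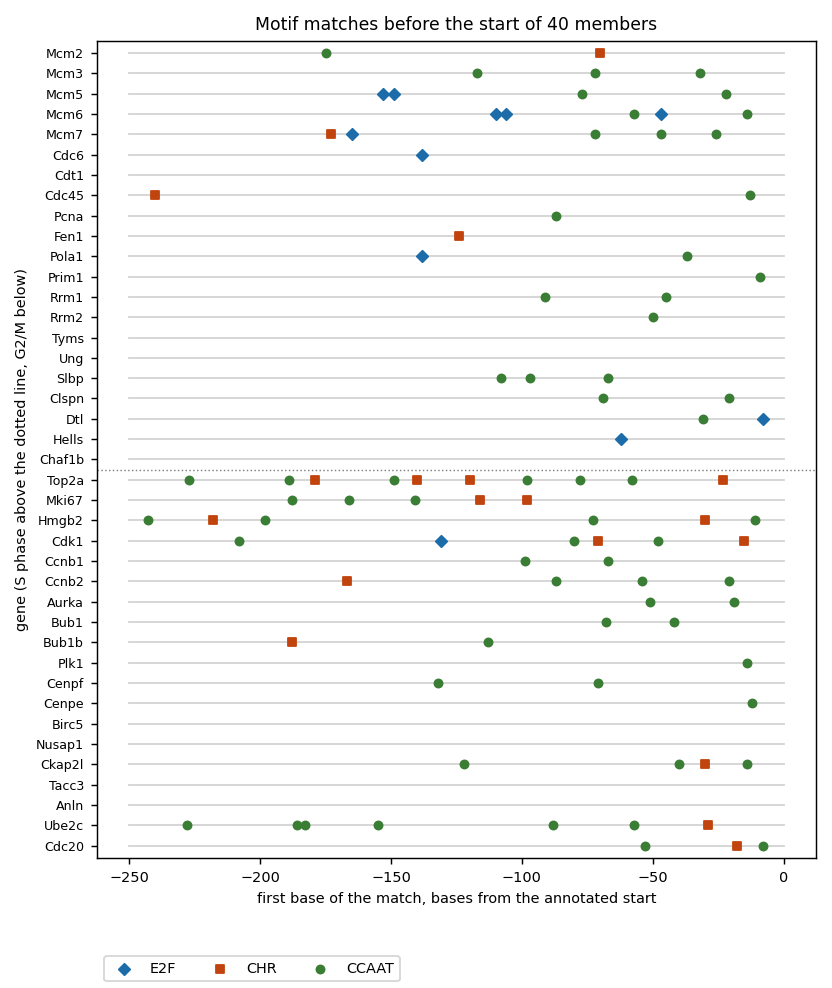
Matches to E2F, CHR and CCAAT letters in the 250 bases before the start of the 40 members with a RefSeq window, one line per gene (both windows of Mcm7 and Fen1 on 1 line), with the distance from the start in bases on the horizontal axis. E2F marks lie on 7 of 21 S phase lines and 1 of 19 G2/M lines, and CHR marks on 4 and 9.

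The levels of the members separated dividing from postmitotic classes in both libraries. In RGC-like cells the summed level of the 24 S phase members was 2642 CPM in replicate 2 and 2783 CPM in replicate 4 (2712 ± 99.3, mean ± SD, n = 2), and that of the 22 G2/M members was 4800 and 5011 CPM (4905 ± 149). IPC-like cells held 1204 and 1478 CPM (1341 ± 194) of the S phase and 2192 and 3139 CPM (2665 ± 669) of the G2/M members. Excitatory neuron-like cells, which have left the cell cycle, held 268 and 283 CPM (275 ± 11.1) of the S phase and 91.9 and 98.5 CPM (95.2 ± 4.71) of the G2/M members. The libraries of these 3 classes did not overlap for either list. MGE interneuron-like cells, GABAergic neurons that migrate in from the medial ganglionic eminence, held 560 and 509 CPM (535 ± 36.1) of the S phase and 58.6 and 72.0 CPM (65.3 ± 9.47) of the G2/M members. Without Pola1, described below, the other 23 S phase members summed to 243 and 211 CPM, beside 231 and 240.5 CPM in excitatory neuron-like cells.

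Single genes followed the same order. Top2a was at 503 and 559 CPM in the RGC-like, 203 and 371 CPM in the IPC-like and 2.66 and 2.86 CPM in the excitatory neuron-like libraries. Mki67, the source of the proliferation antigen Ki-67, was at 293 and 234 CPM, 118 and 176 CPM, and 4.40 and 4.63 CPM in the same classes. Both libraries of each class lay apart from those of the next for these genes. Pcna, which also serves in DNA repair, kept a level in neurons, with 271 and 247 CPM in the RGC-like, 108 and 125 CPM in the IPC-like and 31.8 and 33.3 CPM in the excitatory neuron-like libraries. Counts at the 3′ ends give levels of a gene across classes, and the figures are not read between genes.

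The share of cells with a transcript was compared after every cell had been thinned to 5000 UMIs, which left out 192 shallower cells (66 in replicate 2 and 126 in replicate 4). Top2a was found in 48.1% and 55.1% of RGC-like cells, 18.4% and 23.1% of IPC-like cells, and 2.31% and 1.76% of excitatory neuron-like cells. For Hmgb2, a chromatin protein of proliferating cells, these shares were 89.3% and 90.2%, 63.8% and 63.2%, and 15.1% and 18.1%. How much of the share in neurons comes from free RNA and how much from the neurons themselves was not tested. In full, unthinned cells Top2a was found in 71.2% and 67.2% of RGC-like, 25.7% and 33% of IPC-like and 5.82% and 5.41% of excitatory neuron-like cells.

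**Figure D2:**
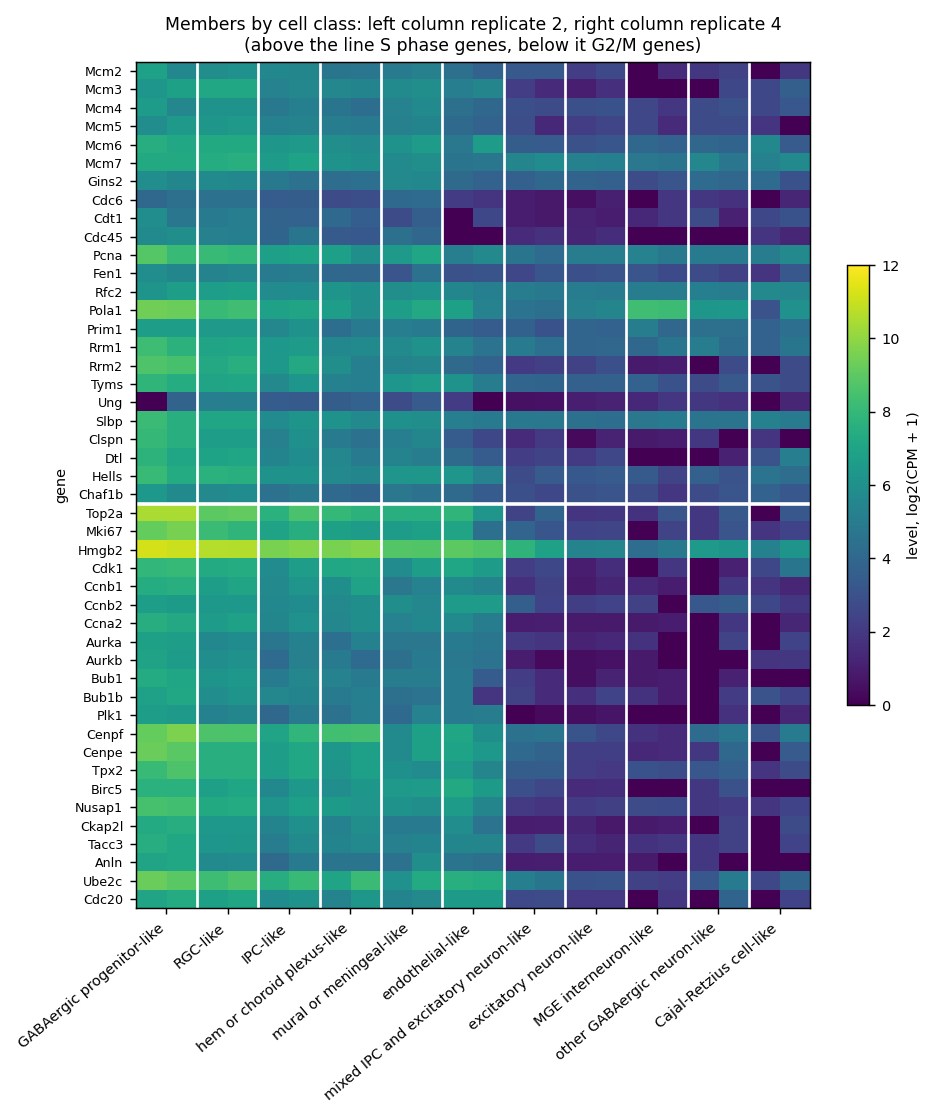
Heat map of log2(CPM + 1) for the 46 members (lines) in 11 cell classes, with replicate 2 on the left and replicate 4 on the right of each class; colours compare a gene across classes and not genes with one another. RGC-like and IPC-like columns are brighter than the excitatory neuron-like column of the same library for all 46 members, although members such as Ung and Cdc6 are faint in IPC-like cells. Excitatory neuron-like and MGE interneuron-like columns are mostly dark among the G2/M members while some S phase members such as Pcna and Pola1 keep colour.

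The phase of each cell was then called from 80 other cell cycle genes (40 of S phase and 40 of G2/M), none of them a member, on cells thinned to 5000 UMIs. Most RGC-like cells carried an S-like or G2/M-like profile and most IPC-like cells did not: 26.8% ± 6.34 of RGC-like and 72.6% ± 2.63 of IPC-like cells were G1-like. S-like cells made up 74 of 214 RGC-like cells in replicate 2 (34.6%, exact 95% binomial interval 28.2 to 41.4) and 147 of 376 in replicate 4 (39.1%, 34.1 to 44.2), a mean of 36.8% ± 3.19. G2/M-like cells made up 34.1% (27.8 to 40.9) and 38.6% (33.6 to 43.7), a mean of 36.3% ± 3.15. Among IPC-like cells, 17 of 141 (12.1%, 7.18 to 18.6) and 28 of 212 (13.2%, 8.96 to 18.5) were S-like, a mean of 12.6% ± 0.814, and 13.5% (8.31 to 20.2) and 16% (11.4 to 21.7) were G2/M-like, a mean of 14.8% ± 1.81. The intervals of RGC-like and IPC-like cells did not overlap in either library for either phase. With 2 libraries no test of the shares was made, and the intervals cover counting error only.

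In excitatory neuron-like cells, 0 of 477 (up to 0.770%) and 3 of 681 (0.441%) were S-like, and 1 cell of each library was G2/M-like. These shares are the level at which postmitotic cells were called cycling. In MGE interneuron-like cells 1 of 53 and 0 of 75 cells (up to 4.80%) were S-like and none of either library was G2/M-like (up to 6.72% and 4.80%). In the mixed class 0 of 80 and 0 of 174 were S-like and 1 cell of each library was G2/M-like. Hem or choroid plexus-like cells, from the medial edge of the cortex, had 16.3% and 24.3% G2/M-like cells, and mural or meningeal-like cells 22.7% and 22.0%. GABAergic progenitor-like cells, with 8 and 47 cells deep enough, had 50% and 38.3% S-like and 37.5% and 57.4% G2/M-like cells.

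The phase calls have a border. In RGC-like cells 9.81% and 8.51%, and in IPC-like cells 5.67% and 6.60%, had a score within 0.05 of the limit of 0. Both the S and the G2/M score were above 0 in 68 of 214 and 133 of 376 RGC-like cells. The same held for 17 of 141 and 27 of 212 IPC-like cells. Such cells took the phase of the higher score, so that the split between S-like and G2/M-like is less sharp than the shares alone show. When the phase was called from the 46 members in place of the other genes, 336 G2/M-like and 315 S-like cells of all classes kept their phase, while 35 cells went from G2/M-like to S-like and 15 the other way. Of the G1-like cells 2021 kept their phase and 197 became S-like, and the S-like share was then 49.3% in RGC-like and 23.7% in IPC-like cells. Depth differed with phase, from a median of 27956 and 22995 UMIs in G1-like to 40567 and 30799 UMIs in G2/M-like RGC-like cells, which is why phases were called on thinned cells.

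The progenitor clusters differed in their cell cycle makeup. The 461 genes left out of the clustering do not cover every gene that moves with the cell cycle. Pclaf, among the leading genes of cluster 18, was not left out. Among RGC-like cells, cluster 7 had 46.8% and 45% S-like and 42.9% and 51.2% G2/M-like cells. Cluster 9, which also carried 5 of 8 raised IPC markers and held Neurog2 at 348 and 269 CPM, had 39.7% and 39.6% S-like but 3.45% and 4.17% G2/M-like cells. In cluster 1, with the hemoglobin genes, 19.0% and 33.3% were S-like and 48.1% and 36.3% G2/M-like. Among IPC-like cells, cluster 18 (22 and 52 cells) was almost entirely cycling, with 19.0% and 28.6% S-like and 81.0% and 65.3% G2/M-like cells, and Top2a, Ube2c, Ccnb1 and Nusap1 were among its 10 leading genes. Cluster 0 had 14.4% and 12.3% S-like and 2.22% and 1.89% G2/M-like cells. Cluster 22, led by Neurod1 and Eomes, had 0% and 1.75% S-like cells and no G2/M-like cell. Since these clusters were made from the same cells, their differences are a description and were not tested.

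**Figure D3:**
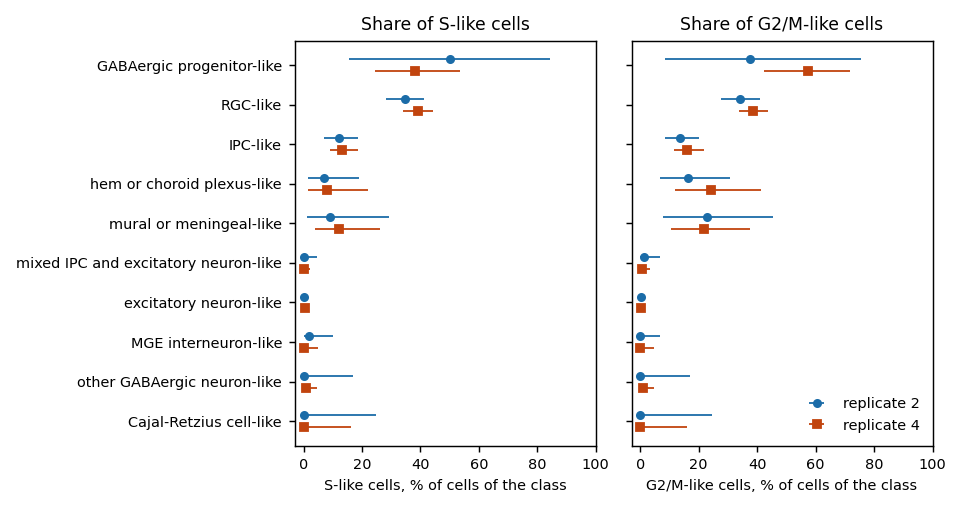
Share of S-like and G2/M-like cells (percent of cells with at least 5000 UMIs) in 10 cell classes, one point per library with its exact 95% binomial interval. RGC-like points lie between 34.1% and 39.1% in both panels, IPC-like points between 12.1% and 16%, and neuron classes at or near 0.

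The first comparison asked how the members differ between RGC-like and IPC-like cells taken whole. All 46 members had a higher level in RGC-like cells, and 32 passed the test, 19 of 24 S phase and 13 of 22 G2/M members, beside 14.5% of all 13877 genes called higher. None was called lower. The median log2 fold change was 0.97 for the S phase and 0.82 for the G2/M members, beside 0.03 for all genes. All adjusted p-values are from edgeR's quasi-likelihood test with Benjamini-Hochberg adjustment over all genes tested. In summed cells, a larger share of cycling cells and more transcript per cycling cell cannot be told apart. The count changed with the grouping of the cells: it was 7 with doublets kept (250 IPC-like cells), 13 at a coarser clustering (270 cells) and 16 when cell cycle genes were used for clustering (292 cells), against 32 with the 362 cells used here, and those called under each of these settings were among the 32. It was 33 with a minimum of 500 genes (499 cells), 38 with a 5% mitochondrial limit (372 cells) and 44 where one part of the UMIs made the classes and the other was tested (495 cells). The cause was not tested.

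By role, 9 of 10 licensing and helicase genes, 3 of 5 clamp and synthesis genes, 2 of 4 nucleotide supply and repair genes and all 5 chromatin, histone mRNA and checkpoint genes were higher in RGC-like cells. Ung, the uracil-DNA glycosylase that removes uracil from new DNA, was at 33.7 and 35.6 CPM in the RGC-like libraries, against 10.1 and 9.47 CPM in the IPC-like ones. Its libraries lay far apart, with a log2 fold change of 1.76 (SE 0.22, adjusted p = 4.61e-05). Mcm3, a helicase subunit, was at 139 and 148 CPM against 39.5 and 46.6 CPM (log2 fold change 1.67, SE 0.25, adjusted p = 0.000278). Hells, a chromatin remodeler of replicating cells, was at 199 and 190 CPM against 70.8 and 70.3 CPM (1.40, SE 0.18, adjusted p = 5.95e-05). These 3 showed the largest differences of the S phase list, and all were higher in both RGC-like libraries.

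Mcm2 was at 59.0 and 67.1 CPM in the RGC-like libraries, against 48.1 and 44.5 CPM in the IPC-like ones, a log2 fold change of 0.38 (adjusted p = 0.198), although Mcm3 of the same ring differed by 1.67. Mcm5, with 79.5 and 90.2 against 38.2 and 40.3 CPM, lay between them (1.05, adjusted p = 0.0063). Whether these subunits differed from one another was not tested. The licensing factors Cdc6 (21.6 and 21.0 against 10.3 and 10.7 CPM, log2 fold change 0.96) and Cdt1 (29.0 and 34.4 against 13.3 and 12.6 CPM, 1.23) were both called, with adjusted p-values of 0.0425 and 0.00224.

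Pcna was higher by a log2 fold change of 1.09 (adjusted p = 0.0039), Tyms, the thymidylate synthase, by 1.01 (129 and 138 against 49.1 and 77.5 CPM, adjusted p = 0.00132), and Slbp, which binds the stem-loop of histone mRNAs, by 0.99 (132 and 134 against 54.5 and 73.6 CPM, adjusted p = 0.000426). Rrm2, the regulated subunit of ribonucleotide reductase, was at 149 and 186 CPM in the RGC-like libraries, against 82.4 and 149.5 CPM in the IPC-like ones. Here the higher IPC-like library reached the lower RGC-like one, and the log2 fold change of 0.46 (SE 0.31) did not pass the test (adjusted p = 0.295). The other S phase members that were not called were Rrm1 (0.44, adjusted p = 0.138), Fen1, the flap endonuclease (0.42, 0.236), and Prim1, the primase (0.54, 0.133).

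Of the G2/M members, 2 of 3 chromosome structure genes, 3 of 4 of the group of Cdk1 and cyclins, 2 of 5 mitotic kinases, 6 of 8 spindle, kinetochore and cytokinesis genes and neither gene of the anaphase-promoting complex were called. The largest differences were those of Anln, a scaffold of the contractile ring (52.3 and 54.3 against 16.5 and 29.8 CPM, log2 fold change 1.13, SE 0.33, adjusted p = 0.0219), Aurkb, the Aurora kinase of the centromere (57.7 and 67.3 against 17.6 and 37.0 CPM, 1.12, SE 0.30, adjusted p = 0.0135), and Cenpf, a kinetochore protein (400 and 394 against 127 and 239 CPM, 1.05, SE 0.32, adjusted p = 0.0235). The RGC-like libraries were higher than both IPC-like libraries for each. All 3 of these calls were lost with doublets kept and with the coarser clustering.

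Cdk1, the mitotic kinase, was at 159 and 174 CPM in the RGC-like libraries, against 54.7 and 105 CPM in the IPC-like ones (log2 fold change 0.99, adjusted p = 0.0459). Its partners Ccna2 (98.6 and 117 against 44.4 and 65.9 CPM, 0.90, adjusted p = 0.00411) and Ccnb1 (104 and 127 against 49.3 and 75.9 CPM, 0.82, adjusted p = 0.0397) were also called. Birc5, the survivin of the chromosomal passenger complex, differed by 0.85 (109 and 135 against 47.4 and 82.2 CPM, adjusted p = 0.0178), Hmgb2 by 0.91 (1632 and 1579 against 758 and 879 CPM, adjusted p = 0.0217) and Mki67 by 0.77 (adjusted p = 0.0381). For each of these genes both RGC-like libraries lay above both IPC-like libraries.

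The members that did not pass had differences of the same sign. Top2a had a log2 fold change of 0.82 (adjusted p = 0.0823), Cdc20 of 0.87 (112 and 132 against 56.0 and 71.5 CPM, adjusted p = 0.0507) and Ube2c of 0.55 (307 and 394 against 176 and 283 CPM, adjusted p = 0.319). The spindle kinases Aurka (46.8 and 56.6 against 25.5 and 38.2 CPM, 0.63, adjusted p = 0.137) and Plk1 (37.5 and 44.5 against 15.4 and 30.5 CPM, 0.76, adjusted p = 0.119) were likewise not called. In IPC-like cells each of these 5 transcripts was higher in replicate 4 than in replicate 2, whose IPC-like class held 22 cells of the cycling cluster 18 among 144, against 52 among 218 in replicate 4, and the part of this in the result was not tested.

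Against excitatory neuron-like cells, all 46 members were higher in RGC-like cells (25.1% of all genes were called higher) and all 46 were higher in IPC-like cells (17.1%). Both comparisons share the excitatory libraries. The median log2 fold change over RGC-like cells was 3.43 for the S phase and 5.65 for the G2/M members, and over IPC-like cells 2.64 and 4.89. In RGC-like cells, Clspn, a checkpoint mediator of the replication fork (101 and 103 against 0.231 and 1.19 CPM), had a log2 fold change of 6.87, Mcm3 of 6.23 and Dtl, a substrate receptor that marks Cdt1 for destruction, of 4.76. Of the G2/M members, Top2a differed by 7.35, Aurkb by 6.91 and Ccna2 by 6.78. In IPC-like cells, the largest were Clspn (5.91), Mcm3 (4.55) and Rrm2 (4.24), and Top2a (6.52), Ccna2 (5.88) and Aurkb (5.79). The smallest differences were those of Rfc2, a clamp loader subunit, and Gins2, a helicase partner, in both classes (1.53 and 1.76 in RGC-like, 0.64 and 0.84 in IPC-like cells). Rfc2, named after its values were seen, was at 32.5 and 30.9 CPM in excitatory neuron-like cells.

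Few members passed the test between the 2 neuron classes. Of the 46 members, 1 was called higher (6.79% of all genes) and 3 lower (12.3% of all genes) in MGE interneuron-like than in excitatory neuron-like cells. None of the 22 G2/M members passed edgeR's test, with 3 at an unadjusted p under 0.05, and DESeq2 called 1 member higher and 1 lower over both lists. Most values rest on few UMIs: Mcm3, Cdc45, Dtl, Birc5 and Plk1 had no UMI in either MGE interneuron-like library. Dtl, at 3.07 and 4.96 CPM in excitatory neuron-like cells, was at least 3.18-fold lower against a floor of 3 counts in the summed cells (adjusted p = 0.0315). Mcm2, with 2 UMIs in MGE interneuron-like cells (0 and 1.80 CPM), was at 3.59 and 5.17 CPM in excitatory neuron-like cells, a ratio of 0.193 of the summed cells (exact 95% counting interval 0.0231 to 0.707, adjusted p = 0.0279), and Gins2 was at 5.62 and 8.10 against 13.0 and 11.7 CPM (log2 fold change -0.94, SE 0.31, adjusted p = 0.0477). Of these 3 lower calls, 1 remained with a 5% mitochondrial limit (Gins2), with doublets kept (Dtl), at the coarser clustering (Gins2) and with DESeq2 (Dtl), and none where one part of the UMIs made the classes and the other was tested (split UMIs), while the 1 higher call was kept in each. When every gene with 1 count or more was fitted, 11 members were lower and 1 was higher.

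Pola1, the catalytic subunit of DNA polymerase alpha, was the exception. It was at 317 and 299 CPM in MGE interneuron-like and 36.6 and 42.7 CPM in excitatory neuron-like cells, a log2 fold change of 2.87 (SE 0.36, adjusted p = 6.94e-05). These levels overlapped those of RGC-like cells (283 and 323 CPM), while no other member of the clamp and synthesis group was called. Pola1 was at 81.3 and 82.1 CPM in the other GABAergic neuron-like cells. Whether all of these reads come from Pola1 transcripts was not tested.

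The second group of comparisons used the phase called from other genes, so that no member had helped to choose the cells. Those genes belong to the same programme as the members. The direction of most differences between S-like and G2/M-like cells was therefore largely set by the calls. Within RGC-like cells, the S phase members were high in S-like cells and the G2/M members in G2/M-like cells, in both libraries. The S phase members summed to 836 and 1067 CPM in G1-like, 4738 and 4602 CPM in S-like and 1925 and 1832 CPM in G2/M-like cells. The G2/M members summed to 1069 and 917, 2634 and 2283, and 8973 and 9182 CPM. Cell type markers moved with these phases. IPC markers summed to 1175 and 929 CPM in G1-like, 123 and 186 CPM in S-like and 190 and 177 CPM in G2/M-like RGC-like cells. Excitatory neuron markers were at 3681 ± 197, 2682 ± 356 and 2935 ± 429 CPM in the same order, and the part of both was not tested. In IPC-like cells the S phase members summed to 509 and 494, 4465 and 5021, and 2107 and 2124 CPM, and the G2/M members to 207 and 321, 1865 and 2821, and 12607 and 11863 CPM. The G1-like level of both lists was lower in IPC-like than in RGC-like cells in both libraries, and the G2/M-like level of the G2/M members was higher. The calling genes also differed in G1-like cells. Those of S phase summed to 1241 and 1483 CPM in RGC-like and 877 and 860 CPM in IPC-like cells. Those of G2/M summed to 973 and 946 CPM and to 581 and 632 CPM.

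In RGC-like cells, 22 of 24 S phase members were higher in S-like than in G2/M-like cells (1.6% of all 12163 genes were called higher), and all 22 G2/M members were lower (1.93%). The median log2 fold change was 1.49 and -2.27, beside 0.00362 for all genes. In IPC-like cells, with 17 and 28 S-like and 19 and 34 G2/M-like cells, 16 of 24 S phase members were higher (3.91% of all genes) and 21 of 22 G2/M members lower (4.9%), with medians of 1.54 and -2.57. The IPC-like phases came from different clusters, with 26 of 45 S-like cells in cluster 0 and 49 of 53 G2/M-like cells in cluster 18. Summed IPC markers were at 2555 ± 8.53 CPM in S-like and 1613 ± 269.5 CPM in G2/M-like cells, and excitatory neuron markers were at 4253 ± 20.9 and 6590 ± 810 CPM. RGC markers were at 1288 ± 154 and 838 ± 157 CPM, and the part of these 3 marker lists in the result was not tested. Over all genes, 430 were called in RGC-like and 1072 in IPC-like cells. Data were also simulated with a preset spread that was not estimated from these libraries. There, 92.9% of genes changed by a fold of 4 were recovered for this contrast in RGC-like and 69.4% in IPC-like cells.

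The largest S phase difference was that of Ung. In RGC-like cells it was at 84.0 and 80.4 CPM in S-like and 2.28 and 2.42 CPM in G2/M-like cells (log2 fold change 5.11, SE 0.37, adjusted p = 2.16e-05), and in IPC-like cells at 62.0 and 50.9 against 5.96 and 0 CPM (4.59, SE 0.58, adjusted p = 0.000703). Cdc6 was at 54.0 and 48.7 against 6.51 and 3.31 CPM in RGC-like cells (3.46, SE 0.31) and at 67.5 and 58.3 against 13.4 and 9.19 CPM in IPC-like cells (2.47, SE 0.38). Both genes were low in all 4 G2/M-like sums. In RGC-like cells Gins2 followed (101 and 94.0 against 23.4 and 17.2 CPM, 2.30). Chaf1b, a subunit of the histone chaperone that packs new DNA (133 and 127 against 16.4 and 15 CPM, 3.0), and Cdt1 (73.0 and 67.0 against 13.4 and 10.9 CPM, 2.50) followed in IPC-like cells.

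All 10 licensing and helicase genes were called in RGC-like cells and 9 of 10 in IPC-like cells, with medians of 1.88 and 1.90. Mcm2 differed by 1.91 and 1.62, Mcm5 by 1.55 and 1.45, and Cdt1 in RGC-like cells by 2.15. Pcna was at 523 and 437 CPM in S-like and 174 and 138 CPM in G2/M-like RGC-like cells (1.65) and at 485 and 493 against 149 and 140 CPM in IPC-like cells (1.71). Hells differed by 1.5 and 1.69 and Slbp by 0.93 and 1.5. These members were higher in S-like cells in both libraries of both classes.

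Rrm1 and Tyms of the nucleotide supply genes had the smallest differences between the phases in RGC-like cells, and Rrm1 and Rrm2, followed by Fen1 and Tyms, in IPC-like cells. Rrm1 was at 189 and 153 CPM in S-like and 130 and 150 CPM in G2/M-like RGC-like cells (log2 fold change 0.31, adjusted p = 0.243), and Tyms at 189 and 202 against 143 and 120 CPM (0.60, adjusted p = 0.19). The other 22 S phase members were called in RGC-like cells. In IPC-like cells Rrm1 was at 248 and 228 against 216 and 221 CPM (0.07, adjusted p = 0.828), Rrm2 at 259 and 472 against 313 and 344 CPM (0.11, adjusted p = 0.851) and Tyms at 151 and 255 against 131 and 141 CPM (0.54, adjusted p = 0.23). For Rrm2 the S-like libraries lay on either side of the G2/M-like ones. In RGC-like cells Rrm2 was at 269 and 295 against 127 and 153 CPM (1.03, adjusted p = 0.0452). The other S phase members not called in IPC-like cells were Cdc45, Clspn, Fen1, Rfc2 and Prim1, with log2 fold changes from 0.43 to 0.86.

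The G2/M members that differed most between the phases were Cdc20, Ube2c and Ccnb1 in both classes. Cdc20 was at 18.0 and 13.3 CPM in S-like and 256 and 282 CPM in G2/M-like RGC-like cells (log2 fold change -4.10, SE 0.27, adjusted p = 2.12e-05), and at 10.9 and 9.93 against 360 and 310 CPM in the IPC-like ones (-5.06, SE 0.38). Ube2c was at 42.0 and 70.7 against 699 and 833 CPM in RGC-like (-3.72, SE 0.41) and 14.6 and 41.0 against 1160 and 1178 CPM in IPC-like cells (-5.36, SE 0.50). Of the promoter windows, those of Cdc20 and Ube2c printed above held CHR letters, whereas those of Ccnb1, Plk1, Cenpf and Aurka held none, and the window with 4 CHR matches was that of Top2a, with a smaller difference. Ccnb1, the B-type cyclin that Cdc20 helps to destroy, was at 12.4 and 24.0 against 240 and 267 CPM (-3.72) and at 9.12 and 18.6 against 332 and 319 CPM (-4.52). Each of these transcripts was low in all S-like sums and high in all G2/M-like sums.

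Cenpf differed by -3.35 in RGC-like and -3.74 in IPC-like cells, Plk1 by -3.45 and -4.06, and Aurka by -2.53 and -3.43. Birc5 differed by -1.92 and -2.58 and Ccna2 by -1.78 and -2.12. Smaller in RGC-like cells were the differences of Hmgb2 (-1.14 and -1.79), Top2a (371 and 323 against 911 and 999 CPM in RGC-like cells, -1.44, and -1.86 in IPC-like cells), Cdk1 (-1.49 and -1.95) and Mki67 (-1.68 and -2.55), of which Mki67 exceeded Ccna2 in IPC-like cells. These genes already held a level in S-like cells, as in Cdk1 at 116 and 96.4 CPM in S-like and 5.33 and 8.10 CPM in G1-like RGC-like cells.

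The 1 G2/M member not called in IPC-like cells was Bub1b, a spindle checkpoint kinase (-0.92, adjusted p = 0.314). In S-like IPC-like cells it was at 175 CPM in replicate 2 and 28.6 CPM in replicate 4, and 81 of the 96 UMIs of replicate 2 (84.4%) came from 1 of the 17 cells. In G2/M-like IPC-like cells it was at 171 and 173 CPM, and in RGC-like cells at 22.1 and 29.6 CPM in S-like and 121 and 138 CPM in G2/M-like cells.

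**Figure D4:**
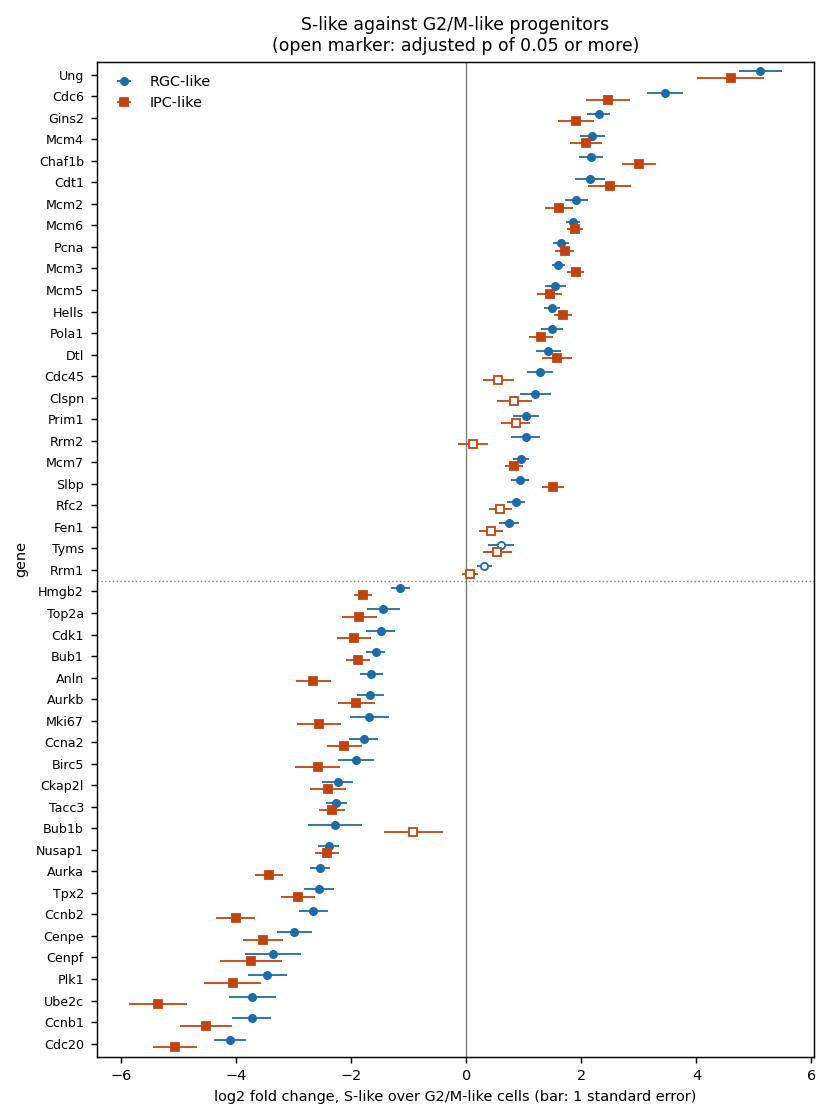
Log2 fold change of S-like against G2/M-like cells for each member, in RGC-like (blue) and IPC-like cells (orange), with bars of 1 SE and open points where the adjusted p is 0.05 or more. S phase members lie to the right of 0 and G2/M members to the left, Ung (5.11 and 4.59) and Ube2c (-3.72 and -5.36) lie far out, and Rrm1 and Rrm2 lie nearest to 0 in IPC-like cells.

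Cells called in the same phase were then compared between RGC-like and IPC-like cells. Among S-like cells, 2 of 46 members were higher in RGC-like cells (7.89% of all genes) and 2 were lower (7.03%), and the medians of the lists were -0.08 for S phase and 0.12 for G2/M members, beside 0.04 for all genes. Neither count of members stands above the share of all genes. The split by direction depended on how phases were called, with 5 higher and none lower when phases came from summed shares of UMIs (1 of them among the 4 above) and 1 higher and 5 lower without thinning, and no member was called higher with doublets kept or with split UMIs. Gins2, at 101 and 94.0 CPM in the RGC-like libraries, against 65.7 and 50.9 CPM in the IPC-like ones, was higher (log2 fold change 0.75, SE 0.22, adjusted p = 0.0405), as was Mcm3 at 262 and 258 against 182 and 191 CPM (0.47, SE 0.12, adjusted p = 0.0196). Rrm1, at 189 and 153 against 248 and 228 CPM, was lower (-0.48, SE 0.14, adjusted p = 0.0346). The fourth call was Bub1b (-1.86, adjusted p = 0.0417), which rests on the single cell described above: the log2 ratio, with 1 CPM added to both levels, was -2.93 in replicate 2 and 0.05 in replicate 4.

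Ung, Hells and Pcna, which differed between the whole classes, were not called among S-like cells, with log2 fold changes of 0.55 (adjusted p = 0.264), 0.20 (0.385) and -0.04 (0.908). The intervals these values allow are wide, since the SE of Ung was 0.30. In data simulated with the preset spread, 71.7% of genes changed by a fold of 4, and 9.28% of those changed by a fold of 2, were recovered for this contrast.

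Among G2/M-like cells, 2 of 46 members were higher (11.5% of all genes) and 8 lower in RGC-like cells (11.5% of all genes). Over both directions these 10 members do not stand above the share of all genes, of which 2795 of 12163 were called. The 40 G2/M genes that had called the phases summed to 8125 and 8651 CPM in RGC-like and 10162 and 10095 CPM in IPC-like cells. The G2/M-like cells of the 2 classes were thus not matched by the calling genes, and the part of this in the result was not tested. All 22 G2/M members had a lower level in RGC-like than in IPC-like cells, with a median log2 fold change of -0.48 beside 0.04 for all genes, and 4 of them passed the test. These were Cenpe, a kinetochore motor (387 and 370 against 694 and 616 CPM, -0.87, adjusted p = 0.0426), Ccnb2 (153 and 156 against 296 and 216 CPM, -0.80, adjusted p = 0.0237), Tpx2, an activator of Aurka (370 and 369 against 649 and 557 CPM, -0.79, adjusted p = 0.0385), and Aurka itself (96.0 and 114 against 149 and 155 CPM, -0.62, adjusted p = 0.0158). In each, both RGC-like libraries were below both IPC-like libraries. Cenpe and Tpx2 lost their calls when the RGC-like cluster with the hemoglobin genes was left out, where 8 members were called in all.

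Of the S phase members in G2/M-like cells, Rrm2 was at 127 and 153 CPM in the RGC-like libraries, against 313 and 344 CPM in the IPC-like ones (log2 fold change -1.32, SE 0.26, adjusted p = 0.00334). Rrm1 (130 and 150 against 216 and 221 CPM, -0.73, adjusted p = 0.00228), Cdc45, a helicase partner (26.0 and 28.2 against 37.2 and 58.5 CPM, -0.95, adjusted p = 0.02), and Fen1 (40.7 and 40.8 against 87.9 and 59.3 CPM, -0.90, adjusted p = 0.00593) were also lower. Both subunits of ribonucleotide reductase were therefore lower in G2/M-like RGC-like cells in both libraries. Mcm3 (88.2 and 86.2 against 47.7 and 48.5 CPM, 0.77, adjusted p = 0.00179) and Slbp (121 and 102 against 61.1 and 75.2 CPM, 0.60, adjusted p = 0.0355) were higher. Mcm3 was called higher in RGC-like cells in the whole classes and in both phases, but among S-like cells its call was lost with doublets kept (adjusted p = 0.0628), with split UMIs (0.172), and with phases from summed shares of UMIs (0.0587).

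Hemoglobin and depth moved with some of these sums. Summed erythroid markers were at 80.7 and 6211 CPM in S-like, 53.0 and 191 CPM in G2/M-like and 89.6 and 233 CPM in G1-like RGC-like cells, highest in the S-like cells of replicate 4, and their part in the results was not tested. Without the hemoglobin-led cluster, 33 members were called between the whole classes, 40 between S-like and G2/M-like RGC-like cells and 4 among S-like cells. Median depth in G2/M-like cells was 40567 and 30799 UMIs in RGC-like and 36543 and 34415.5 UMIs in IPC-like cells, so that RGC-like cells were the deeper in replicate 2 and the shallower in replicate 4.

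Whether the swing between phases differs between the classes was tested directly as an interaction. None of the 46 members was called by edgeR's test (0.0247% of all genes were called in either direction, 3 genes), 7 members had an unadjusted p under 0.05, and DESeq2 also called no member. With all genes of at least 1 count kept in the fit, edgeR's test called 6 members (5 positive and 1 negative) among 466 genes. The difference of the log2 fold changes (RGC-like minus IPC-like) was positive for 21 of 22 G2/M members, with a median of 0.51, which is a smaller drop in RGC-like cells. Ube2c had the largest value, 1.64 (SE 0.63, adjusted p = 0.371), and Bub1b, with its single cell, was the 1 negative one (-1.36, adjusted p = 0.499). In data simulated with the preset spread, the interaction was recovered for 26.8% of genes changed by a fold of 4. That share holds for the preset spread only, and what could be detected in the real libraries was not measured.

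**Figure D5:**
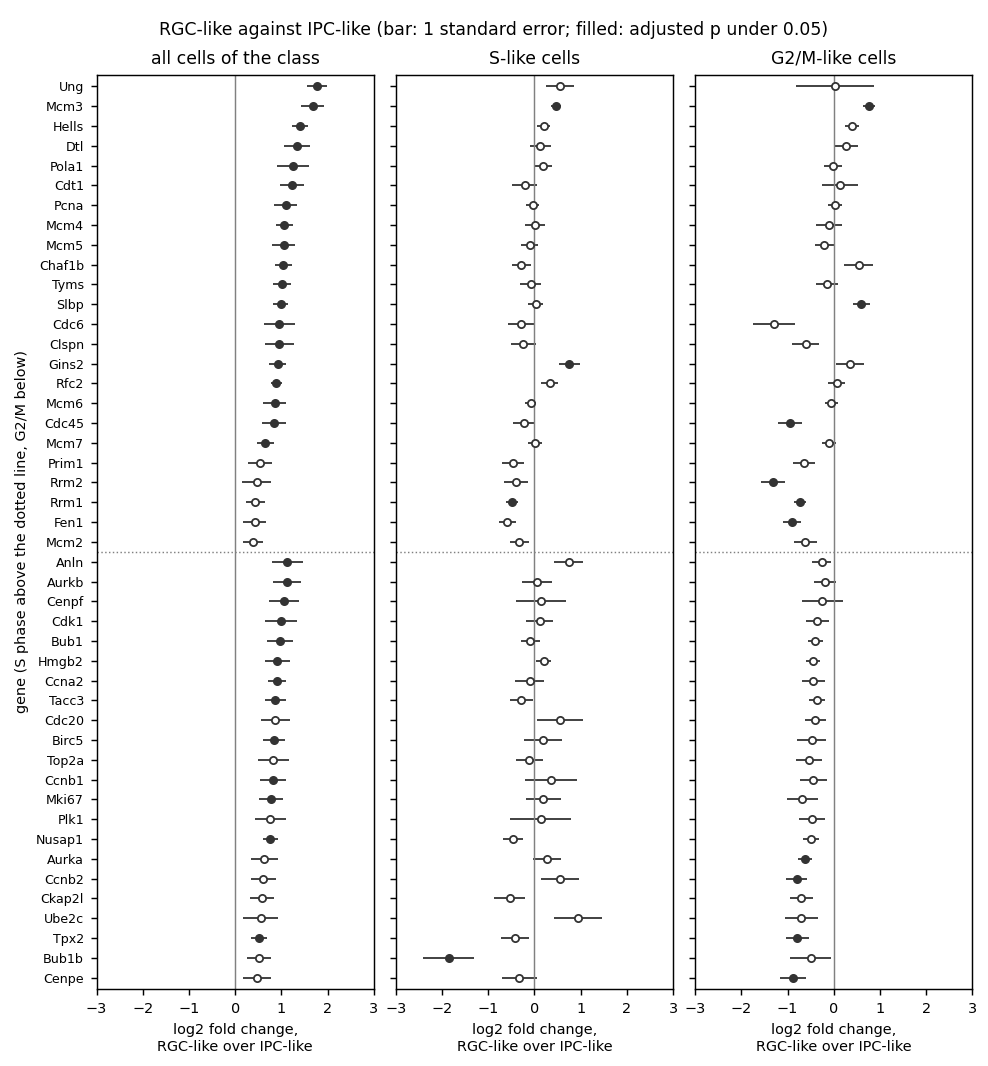
Log2 fold change of RGC-like against IPC-like cells for each member in all cells, in S-like cells and in G2/M-like cells, with bars of 1 SE and open points where the adjusted p is 0.05 or more. In all cells the 46 points lie to the right of 0 (32 filled), in S-like cells they lie on both sides (4 filled), and in G2/M-like cells the 22 G2/M members lie to the left (4 filled).

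Other genes of the same programme were counted beside the members. The 80 genes that had called the phases were not used to make the classes, and 34 of the 40 S phase and 27 of the 40 G2/M genes among them were higher in RGC-like than in IPC-like cells, beside 14.5% of all genes. All 80 were higher in RGC-like than in excitatory neuron-like cells (25.1% of all genes), and 38 of each 40 were higher in IPC-like cells (17.1%). Of 18 transcription regulators of the cell cycle (E2F and Rb family, their partners, Mybl2 and Foxm1), 6 were higher and 1 lower in RGC-like than in IPC-like cells, where 2018 (14.5%) of all 13877 genes were higher and 1912 lower. Mybl2, which joins the MuvB complex at late cell cycle promoters, led these with a log2 fold change of 1.75 (adjusted p = 0.00111), followed by E2f5 (1.18, adjusted p = 0.000733), and Lin37, a MuvB subunit, was lower (-0.79, adjusted p = 0.0353).

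Among the phases, E2f1, an activator of S phase genes, was higher in S-like than in G2/M-like cells of both classes (log2 fold changes 1.92 and 1.27), and Foxm1, an activator of G2/M genes, was lower (-1.61 and -2.31). In all, 4 of 18 regulators were higher and 2 lower in RGC-like cells (1.6% and 1.93% of all genes), and 3 were higher and 1 lower in IPC-like cells (3.91% and 4.9%). Within S-like cells, none of the 18 regulators was called higher and 3 were lower in RGC-like than in IPC-like cells (7.89% and 7.03% of all genes), namely E2f1 (-1.0), Lin37 (-1.25) and Rb1, the retinoblastoma protein that restrains E2F (-0.85). Within G2/M-like cells 1 was higher, E2f5 (1.12), and 4 were lower (11.5% of all genes each way), namely E2f1 (-1.64), Rb1 (-1.22), Tfdp2, a partner of E2F factors (-0.66), and Foxm1 (-0.65). Against excitatory neuron-like cells, 14 regulators were higher and 1 lower in RGC-like (25.1% of all genes higher) and 14 were higher in IPC-like cells (17.1%), led by E2f2 (5.90 and 5.12) and Foxm1 (5.81 and 5.09). Between the neuron classes 1 regulator, E2f5 (0.78), was higher and 2, E2f1 (-2.12) and E2f3 (-1.09), were lower in MGE interneuron-like cells, shares that do not stand above those of all genes (6.79% and 12.3%).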

How the data were processed

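The authors prepared 3′ single-cell libraries with the 10x Genomics v3.1 chemistry and, per the labels, processed reads with Cell Ranger 7.0.0 on mm10. The deposited tables give, for every gene and called cell barcode, raw UMI counts without normalization. By default this version includes intronic reads, and the sources used here do not say if that setting was kept.

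Barcodes had to show 1000 genes or more, with mitochondrial UMIs at 10% or less. Scrublet in scanpy 1.11.5 marked 14 (1.16%) and 15 (0.761%) doublets, which were left out. Clusters came from 2000 variable genes, 30 principal components, 20 neighbours and Leiden resolution 1, without correction between libraries and without 461 cell cycle-related genes. This gave 25 clusters and 8 GABAergic sub-clusters (15 neighbours). Naming a cluster took 3 raised markers, each seen in 25% of its cells or more and exceeding the median cluster by a log2 ratio of 1 or more after 10 CPM had been added. This naming rule took its present form only after earlier clusterings of these cells had been looked at. No name was given to 179 cells. Phases were called with scanpy's cell cycle scores on 80 genes that are no members, in the 2961 cells with at least 5000 UMIs, thinned to that depth.

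UMIs were summed per library and class, and per library, class and phase, with at least 10 cells per sum. Sums were fitted with edgeR 4.0.16 in R 4.3.3 (quasi-likelihood test, TMM, filterByExpr, Benjamini-Hochberg over 13877 genes for classes and 12163 for phases), and genes were called at an adjusted p under 0.05. Standard errors were derived from the log2 fold change and the F statistic, as their ratio after taking the root of F. Cells were never replicates. All 46 members passed both filters.

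Named genes were 22 members given whatever their result, per comparison and list up to 3 called members each way, ranked by fold change and alike in sign in the 2 libraries, and members not called or against their list where these were 5 or fewer. The members and lists were chosen with earlier results of these data known.

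Sums with the same replicate number come from 1 library, which pairs them. For the class fit, 36 pairs of sums had correlated deviations (median 0.0964, from 0.0199 to 0.281), as did 15 pairs in the phase fit (median 0.129, from 0.0899 to 0.278). The library entered as a block only in an alternative. The fit was tested on simulated data with 200 changed genes, drawn with a preset spread that was not estimated from these libraries. Motifs were searched in RefSeq promoter windows of GRCm38.p6, where 6 members (Mcm4, Gins2, Rfc2, Ccna2, Aurkb and Tpx2) had none. The values of 1 gene that is no member are not reported here.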

Additional observations from a re-analysis of the deposited data

Results flagged for a closer look

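The members reached high levels in 2 classes that entered no test because they had fewer than 10 cells in replicate 2. GABAergic progenitor-like cells (8 in replicate 2 and 49 in replicate 4) held a summed level of 3822 CPM ± 651 (SD, n = 2) of the S phase members (4283 and 3362 CPM) and of 8909 CPM ± 29.3 of the G2/M members (8930 and 8888 CPM), above the postmitotic classes in both libraries. They form 1 sub-cluster of the GABAergic cells, with Top2a, Mki67, Kif11 and Cenpe first among its leading genes. None of these was used for clustering, but Pclaf and Diaph3, also leading genes, were not left out. Endothelial-like cells (9 and 18), which line blood vessels, held a summed level of 1965 CPM ± 562 of the G2/M members (2362 and 1568 CPM), again above the postmitotic classes, with summed erythroid markers at 91.9 and 45563 CPM, whose part in this was not tested. The values of replicate 2 rest on 8 and 9 cells, and no difference was tested.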

How the results depend on the processing

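Of the 183 alternative values of the main results, 149 stayed within their limits and 34 moved. Of 761 values of single named genes, 693 kept their call, 55 lost it, 11 gained one and 2 reversed: Rrm2 between RGC-like and IPC-like cells was -0.00904 with doublets kept and -0.0019 at Leiden resolution 0.5. The number of called members between RGC-like and IPC-like cells (32) was 7 with doublets kept, 13 at resolution 0.5 and 16 with cell cycle genes in the clustering. Between MGE interneuron-like and excitatory neuron-like cells (4) it was 2 with a 5% mitochondrial limit, with doublets kept, at resolution 0.5 and with the DESeq2 1.42.0 Wald test, 1 where one part of the UMIs made the classes and the other was tested, and 12 with all genes of at least 1 count. Within S-like cells (4) it was 1 with doublets kept and 2 with split UMIs. Within G2/M-like cells (10) it was 16 with a 5% mitochondrial limit and 19 with all genes, where the interaction (0) had 6. The cause was not tested.

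The S-like share in RGC-like cells (36.8%) was 43.7% without the hemoglobin-led cluster (an alternative chosen after seeing the data), 49.3% with phases from the 46 members and 44.6% with phases from summed shares of UMIs, and the G2/M-like share (36.3%) was 33.2% without that cluster (SD 10.2, n = 2), 41.7% with summed shares and 41.8% with cell cycle genes in the clustering. In IPC-like cells the S-like share (12.6%) was 11.0% thinned to 3000 UMIs, 11.7% without thinning, 23.7% from the members, 22.7% from summed shares, 9.63% at a minimum of 500 genes, 10.3% with the 5% mitochondrial limit, 16.3% with doublets kept, 16.2% at resolution 0.5 and 15.4% with cell cycle genes. Their G2/M-like share (14.8%) was 17.5% from summed shares, 11.7% at a minimum of 500 genes, 10.4% with the 5% mitochondrial limit, 19.4% at resolution 0.5 and 20.5% with cell cycle genes. In every one of these settings both shares were lower in IPC-like than in RGC-like cells.

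Leaving out a library leaves no spread to test, so the count of called members that kept their sign in the other library is given: 3 to 4 within S-like cells, and the full count of 32, 46, 46, 4, 44, 37, 10 and 0 in the other comparisons. The shares of the libraries alone were 34.6% to 39.1% and 34.1% to 38.6% in RGC-like and 12.1% to 13.2% and 13.5% to 16% in IPC-like cells. The library as a replicate block changed no call of a named gene. It gave 35 called members between RGC-like and IPC-like cells, 13 within G2/M-like and 4 within S-like cells, 5 between the neuron classes, and 36 genes in place of 3 for the interaction over all genes.

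Counts over all genes moved as well: the interaction had between 5 and 466 calls in place of 3 in the 12 settings that moved it, S-like against G2/M-like cells had 914 calls in RGC-like cells with all genes of at least 1 count (430 otherwise), 1706 in IPC-like cells with all genes and 503 with split UMIs (1072), and 1066 within S-like cells with split UMIs (1815). With all genes, 56.9% in place of 45.3% of the RGC-like phase calls were higher. DESeq2 size factors moved the median of all genes by 0.103 (log2) between RGC-like and excitatory neuron-like cells, and with them 33 members in place of 32 were called between RGC-like and IPC-like cells and 3 in place of 4 between the neuron classes.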

Other observations

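The members were also read by phase in GABAergic progenitor-like cells, as values with no test. The 10 licensing and helicase genes summed to 1340 and 1395 CPM in S-like and 425 and 522 CPM in G2/M-like cells. The 8 spindle, kinetochore and cytokinesis genes summed to 1340 and 681 CPM in S-like and 3913 and 3598 CPM in G2/M-like cells. Replicate 2 holds 4 S-like and 3 G2/M-like cells of this class.

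A shallow cluster of 39 cells in each library was left without a name (median depths of 5872 and 4836 UMIs), with 9 of 12 RGC markers raised in it. Of its 27 and 16 cells deep enough for a phase call, 40.7% and 43.8% were S-like and 48.1% and 50% were G2/M-like. It entered no comparison.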
